A study of Oryctolagus cuniculus with 6 samples.

Results

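The transforming growth factor beta (TGF-β) genes described here are 10 genes of one signalling route: the ligands TGFB1, TGFB2 and TGFB3, the receptors TGFBR1, TGFBR2 and TGFBR3, the intracellular transducers SMAD2 and SMAD3, their inhibitor SMAD7, and TGFBI, a gene named for its induction by the ligand. They were taken by symbol from the 28788 genes of the files, and all 10 were found. Retinas of 3 normal samples and 3 samples from a rabbit model of proliferative vitreoretinopathy (PVR) were compared by sequencing of polyadenylated RNA. The model was made in adult rabbits by puncturing the sclera, removing some vitreous and injecting platelet-rich plasma into the vitreous cavity, and the normal group is described by its label alone. The strain, the time from injection to collection, any sham surgery of the normal eyes, and whether each sample is 1 animal are not given in the sources used here, so p-values measure the spread between these samples.

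TGF-β ligands are secreted in a latent form, bound in the matrix by latent TGF-β binding proteins and released by integrins, thrombospondin or proteases. The active ligand binds the type II receptor, which phosphorylates the type I receptor, and that kinase phosphorylates SMAD2 and SMAD3, which enter the nucleus with SMAD4. In the eye, TGF-β2 is the prevailing isoform, TGF-β1 is carried in large amounts by platelets, and the pathway is known for driving pigment epithelial cells and glia towards contractile, matrix-producing cells in scarring membranes. All these steps concern protein, whereas the values given here are transcript levels.

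Each sample had between 31904593 and 43035080 counted reads. GNAT1, the transducin subunit of rod photoreceptors, had an FPKM (counts scaled by the length of the gene and the depth of the sample) of at least 788 in every sample, so the retinal label held. RPE65, a marker of the pigment epithelium, was also present in every sample, at 28.4 to 64.0 FPKM in the normal samples and 18.2 to 20.6 FPKM in PVR. Normal replicate 2 stood apart, since 5 lens crystallins took 2.89% of its counts against at most 0.0291% in any other sample. For the genes named, edgeR calls lost without it are given below. In these bulk samples, fewer cells of a type and less RNA per cell cannot be told apart.

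None of the 10 genes passed an adjusted p of 0.05 in edgeR's test of PVR against normal, in which 1.7% of the 18697 genes tested did so and 1.01% also had a log2 fold change beyond 1. At an unadjusted p under 0.05, 2 of the 10 passed, TGFBI and SMAD3, where 21.2% of all genes tested did. With DESeq2, 1 of the 10 passed an adjusted p of 0.05, TGFBI, where 8.75% of the 20052 genes with an adjusted p did. The fitted log2 fold change was above 0 for 9 of the 10 genes and below 0 for SMAD7, with a median of 0.32 beside -0.01 over all genes tested. In 4 of the 10 genes, TGFBI, TGFBR2, SMAD2 and SMAD3, every PVR sample had a higher FPKM than every normal sample, a pattern seen in 17.0% of all genes tested. The opposite pattern was found in none of the 10 genes and in 9.69% of all genes tested. Scaling with TMM factors, which adjust depth for RNA composition, left the same count of 4 genes and changed the share over all genes from 17.0% to 13.4%. For the opposite pattern, the share over all genes changed from 9.69% to 14.55%, and still none of the 10 genes had it.

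**Figure D1:**
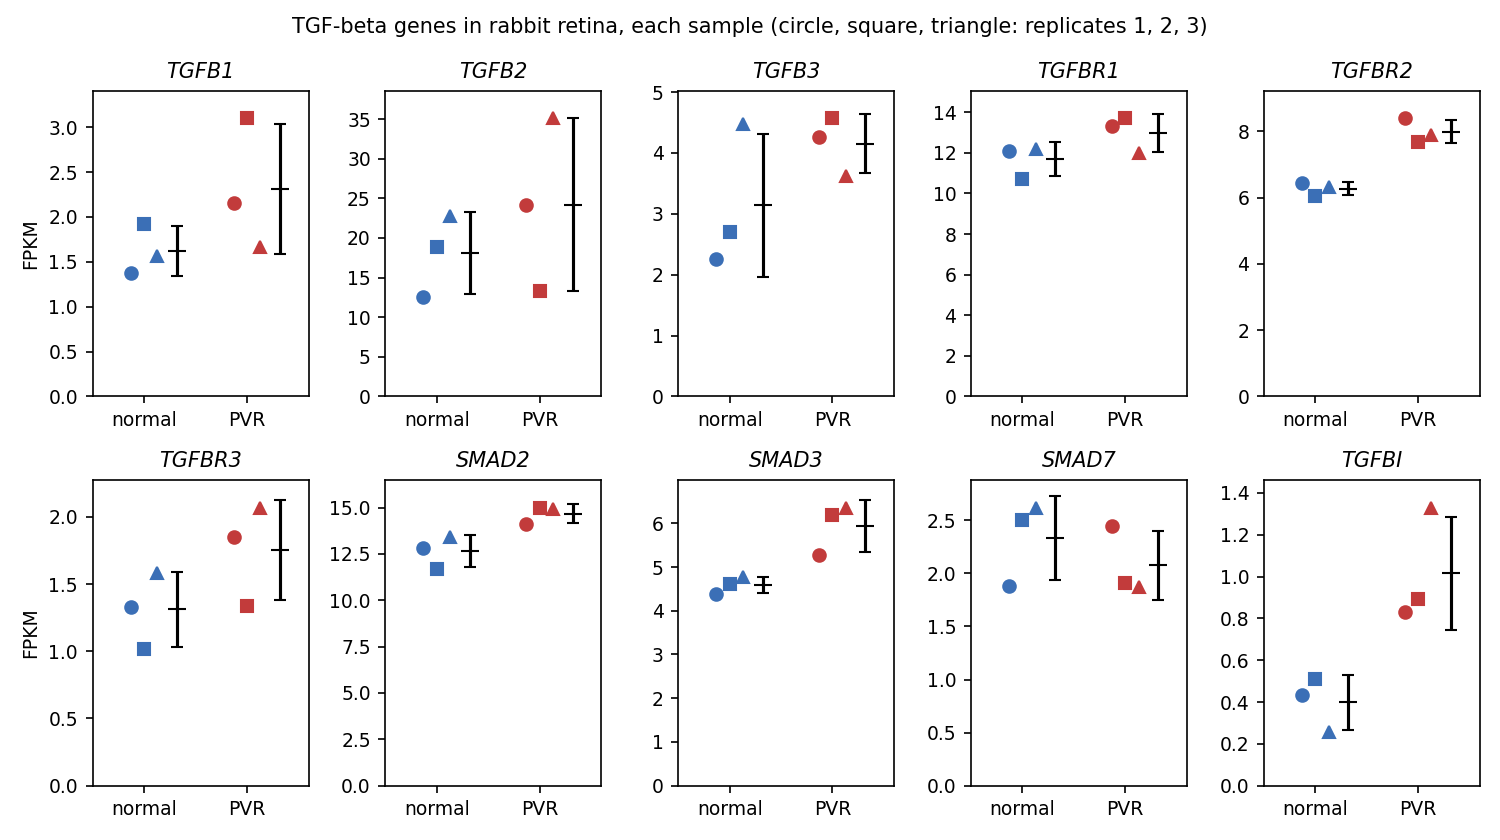
FPKM (vertical axes, each starting at 0) of the 10 genes in the 3 normal (blue) and 3 PVR (red) samples, with a circle, square and triangle for replicates 1, 2 and 3. The black bar gives the group mean and SD; the groups are apart for TGFBR2, SMAD2, SMAD3 and TGFBI, and TGFB2 spans 13.3 to 35.1 FPKM within PVR alone.

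Per length, TGFB2 was the most abundant of the 10 transcripts, with a mean of 21.1 FPKM over the 6 samples, followed by SMAD2 at 13.7, TGFBR1 at 12.4, TGFBR2 at 7.13 and SMAD3 at 5.27. TGFB3 had 3.65, SMAD7 2.21, TGFB1 1.97, TGFBR3 1.53 and TGFBI 0.707 FPKM. Of these neighbours in the order, TGFBR1 and TGFBR2 had ranges over the 6 samples that did not overlap, whereas every other neighbouring pair overlapped.

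Among the ligands, TGFB2 had FPKM values of 12.6, 18.9 and 22.8 in normal replicates 1, 2 and 3 and of 24.1, 13.3 and 35.1 in PVR replicates 1, 2 and 3. The groups overlapped widely, because PVR replicate 2 lay near the lowest normal sample while PVR replicate 3 was the highest of all. The mean was 18.1 ± 5.14 (SD, n = 3) in normal and 24.2 ± 10.9 (SD, n = 3) in PVR. The fitted log2 fold change was 0.36 (standard error 0.35), and the quasi-likelihood test of edgeR gave an adjusted p of 0.586. The 95% interval of the log2 fold change, from -0.47 to 1.18, still held a value of 1. Without PVR replicate 3 the value was -0.03, and without PVR replicate 2 it was 0.65. The within-group SD of TGFB2 on the log2 CPM scale (CPM: counts scaled to one depth in all samples) was 0.60, above that of 99.0% of the 500 genes nearest to it in mean level.

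TGFB1, the platelet isoform, had FPKM values of 1.38, 1.92 and 1.56 in the normal samples, against 2.16, 3.10 and 1.67 in PVR. PVR replicates 1 and 2 were above all normal samples and PVR replicate 3 was not. Its log2 fold change was 0.43 (standard error 0.31, adjusted p = 0.441 in the edgeR fit), with a 95% interval from -0.28 to 1.15. TGFB1 rested on few reads, between 74 and 138 per sample, and the 74 counts of normal replicate 1 have an exact 95% Poisson interval from 58.1 to 92.9, which covers counting error only.

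TGFB3 had FPKM values of 2.25, 2.70 and 4.47 in the normal samples, against 4.27, 4.57 and 3.63 in PVR. A single sample, normal replicate 3, made the groups overlap. For TGFB3 the log2 fold change was 0.34 (standard error 0.25, edgeR adjusted p = 0.469), and it was 0.66 without normal replicate 3, with an adjusted p of 0.106.

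TGFB2 made up most of the ligand transcripts in every sample. Of the summed FPKM of the 3 ligands, TGFB2 took 77.6%, 80.4% and 79.1% in the normal samples, against 78.9%, 63.5% and 86.9% in PVR. The mean share was 79.0% ± 1.37 (SD, n = 3) in normal and 76.4% ± 11.9 (SD, n = 3) in PVR. In PVR replicate 2, where TGFB2 was low and TGFB1 at its highest, the share of TGFB1 was 14.8%, whereas it was between 4.13% and 8.50% in the other 5 samples. The log2 ratio of TGFB2 to TGFB1 differed between PVR and normal by -0.13 (two-sided exact permutation test, p = 1.0), and that of TGFB3 to TGFB1 by -0.02 (same exact test, p = 1.0). Both differences changed sign in some of the other settings tried, and 3 samples against 3 could not pass a threshold of 0.05.

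Of the receptors, TGFBR2, the type II receptor that first binds TGF-β1 and TGF-β3, had FPKM values of 6.43, 6.05 and 6.31 in the normal samples, against 8.39, 7.69 and 7.90 in PVR. The samples of each group lay close together and the groups did not overlap. For TGFBR2 the log2 fold change was 0.28 (standard error 0.13), a fold of 1.22 with a 95% interval from 0.986 to 1.498, and the edgeR adjusted p was 0.262. The within-group SD of TGFBR2 was 0.06 on the log2 CPM scale, above that of 1.2% of the 500 genes nearest in level.

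TGFBR1, the type I receptor kinase also called ALK5, had FPKM values of 12.1, 10.7 and 12.2 in the normal samples, against 13.3, 13.7 and 12 in PVR. The groups overlapped through PVR replicate 3. For TGFBR1 the log2 fold change was 0.08 (standard error 0.08, edgeR adjusted p = 0.569), and the 95% interval, from -0.10 to 0.26, held no change beyond a fold of 1.20. TGFBR3, or betaglycan, a co-receptor that presents TGF-β2 to the type II receptor, had FPKM values of 1.33, 1.02 and 1.58 in the normal samples, against 1.85, 1.34 and 2.07 in PVR. Here PVR replicate 2 lay within the normal range, as it did for TGFB2. Its log2 fold change was 0.36 (standard error 0.23, edgeR adjusted p = 0.401).

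The summed FPKM of the 3 receptors was 19.9, 17.8 and 20.1 in the normal samples, against 23.5, 22.8 and 21.9 in PVR. TGFBR1 contributed 60.7% ± 0.322 (SD, n = 3) of this sum in normal and 57.1% ± 2.96 (SD, n = 3) in PVR. The log2 ratio of TGFBR2 to TGFBR1 was -0.91, -0.83 and -0.96 in the normal samples, against -0.66, -0.84 and -0.60 in PVR. The difference was 0.20 (two-sided exact permutation test, p = 0.2), where 3 samples against 3 cannot give a p under 0.1.

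Of the SMADs, SMAD2, which is phosphorylated by the type I receptor, had FPKM values of 12.8, 11.7 and 13.4 in the normal samples, against 14.1, 15.0 and 14.9 in PVR. The lowest PVR sample was thus just above the highest normal sample. For SMAD2 it was 0.14 on the log2 scale (standard error 0.07, edgeR adjusted p = 0.299). SMAD3, the other receptor-activated transducer and the one that binds DNA directly, had FPKM values of 4.39, 4.62 and 4.77 in the normal samples, against 5.27, 6.19 and 6.36 in PVR. All PVR samples were above all normal samples, with the gap set by PVR replicate 1. The log2 fold change of SMAD3 was 0.30 (standard error 0.11), a fold of 1.23 with a 95% interval from 1.03 to 1.47. Its adjusted p was 0.183 in the edgeR fit and 0.161 with DESeq2, so SMAD3 did not pass.

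SMAD7, which blocks the type I receptor and is itself a target of the pathway, had FPKM values of 1.88, 2.5 and 2.62 in the normal samples, against 2.45, 1.91 and 1.87 in PVR. The groups overlapped, with normal replicate 1 among the low samples and PVR replicate 1 among the high ones. For SMAD7 the log2 fold change was -0.24 (standard error 0.21, edgeR adjusted p = 0.525). Relative to SMAD3, the log2 ratio of SMAD7 was -1.22, -0.89 and -0.87 in the normal samples, against -1.10, -1.69 and -1.77 in PVR, a difference of -0.53 (two-sided exact permutation test, p = 0.2). The log2 ratio of SMAD3 to SMAD2 differed by 0.15 (same exact test, p = 0.2). With Benjamini-Hochberg adjustment over the 5 ratios compared, these exact permutation p-values were between 0.333 and 1.0. With 3 samples against 3 these tests could not pass a threshold of 0.05 in any case, and the other pairs of members were not compared.

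TGFBI, which encodes a secreted matrix protein best known from the cornea, had the largest fitted change of the 10 genes. It had FPKM values of 0.432, 0.508 and 0.255 in the normal samples, against 0.829, 0.891 and 1.33 in PVR. Every PVR sample was higher than every normal sample, and PVR replicate 3 was the highest. The mean was 0.398 ± 0.130 (SD, n = 3) in normal and 1.02 ± 0.271 (SD, n = 3) in PVR. The log2 fold change was 1.28 (standard error 0.37), a fold of 2.42 with a 95% interval from 1.34 to 4.38, and the edgeR adjusted p was 0.117. With DESeq2 the adjusted p was 0.0248, the single setting of 16 in which TGFBI passed, and with a sample left out it was between 0.144 and 0.303 in edgeR. The counts were low, with 56, 69 and 34 reads in the normal samples, against 88, 96 and 190 in PVR, and the 34 counts have an exact 95% Poisson interval from 23.5 to 47.5.

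**Figure D2:**
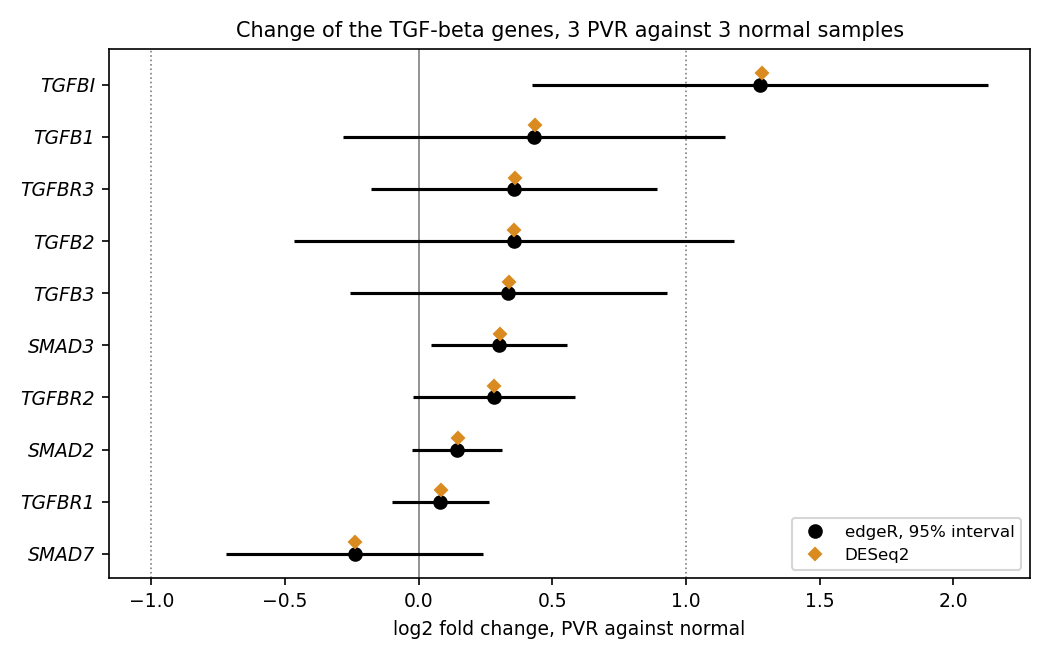
Fitted log2 fold change of PVR against normal (horizontal axis) for the 10 genes, with black points and lines for the edgeR estimate and its 95% interval and orange diamonds for DESeq2; dotted lines mark a log2 fold change of 1 in either direction. The unadjusted interval lies above 0 for TGFBI and SMAD3, and that of TGFBR1, from -0.10 to 0.26, is among the narrowest.

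Markers of other cell types that can carry TGF-β transcripts were read beside the members. All 14 tested microglia and macrophage markers had a fitted log2 fold change above 0, with a median of 0.95, and none passed in edgeR. In 12 of the 14 all PVR samples were higher in FPKM than all normal samples (17.0% of all genes tested), 8 had an unadjusted edgeR p under 0.05 (21.2% of all genes), and 4 passed with DESeq2 (8.75% of all genes). Their summed level was 41.5 to 84.7 CPM in the normal samples and 109 to 149 CPM in PVR, and the defining markers AIF1, CSF1R and CX3CR1 were above 0 in every sample. The summed level of fibroblast markers was 210 to 254 CPM in normal and 246 to 470 CPM in PVR, with 8 of 10 tested markers higher and none passing in edgeR (1 with DESeq2, and 3 at an unadjusted edgeR p under 0.05). Pigment epithelium markers summed to 522 to 715 CPM in normal and 406 to 420 CPM in PVR. Of the 11 tested, 4 were higher and 7 lower, LRAT and TTR fell past the threshold, and BEST1 had every PVR sample above every normal sample with a log2 fold change of 0.53 (edgeR adjusted p = 0.214). Of 12 Müller glia markers, 5 were higher and 7 lower. Past the threshold, CLU had risen by a log2 fold change of 1.07, and GLUL and RLBP1 had fallen, at -1.11 and -0.89. The sum of the list was 3720 to 4310 CPM in normal and 4420 to 4580 CPM in PVR. This sum includes CLU, the most abundant of the list, at 401 to 449 FPKM in normal and 822 to 1030 FPKM in PVR. It therefore does not give the direction of the other markers. Of 12 photoreceptor markers 11 were lower, with 6 at an unadjusted edgeR p under 0.05, none passing in edgeR and 1 with DESeq2. Platelet markers stood at 6.44 to 10.1 CPM in normal and 8.37 to 9.34 CPM in PVR, so the groups overlapped. All 11 oligodendrocyte markers were lower, with sums of 250 to 1260 CPM in normal and 149 to 159 CPM in PVR, and MAG, MOBP and ERMN fell past the threshold. Without PVR replicate 1 none of these calls held (adjusted p from 0.0949 for CLU to 0.240 for LRAT in edgeR), and LRAT and TTR kept theirs in 1 of 6 fits with a sample left out. Without normal replicate 2, CLU and GLUL kept theirs. RLBP1, LRAT, TTR, MAG, MOBP and ERMN did not (edgeR adjusted p from 0.0722 for ERMN to 0.116 for MAG). The part of these cells in the levels of TGFBI or any other member was not tested.

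**Figure D3:**
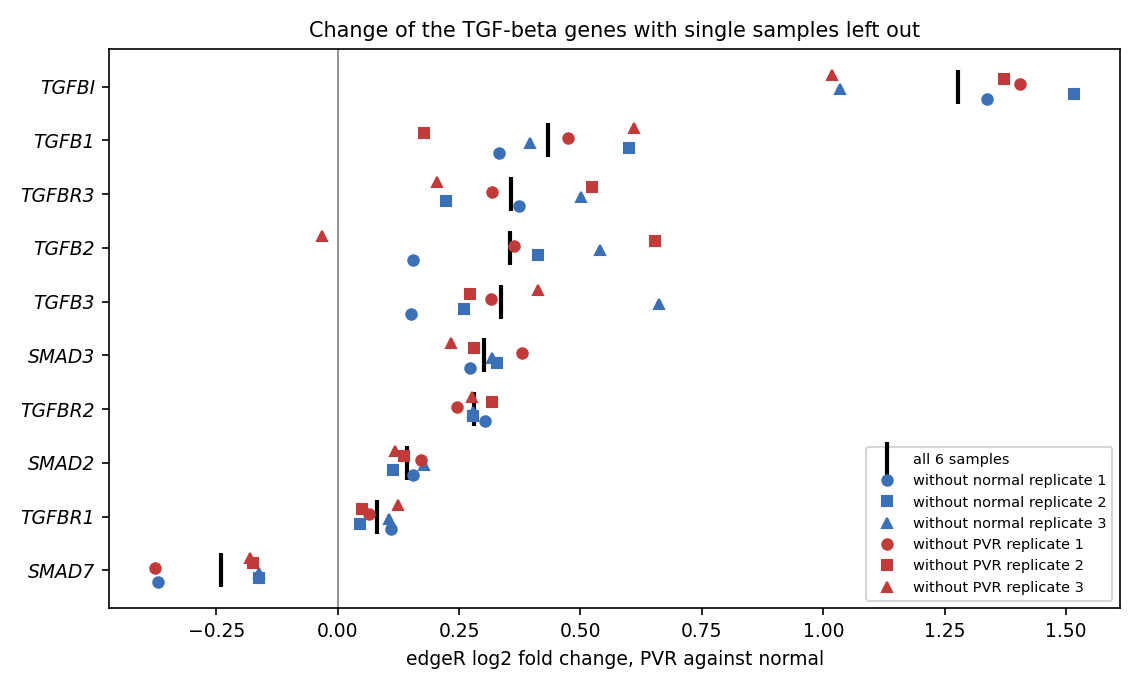
edgeR log2 fold change of the 10 genes with all 6 samples (black bar) and with each sample left out (blue for normal, red for PVR; circle, square and triangle for replicates 1, 2 and 3). TGFB2 runs from -0.03 without PVR replicate 3 to 0.65 without PVR replicate 2, whereas TGFBR2 stays between 0.25 and 0.32.

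The rest of the pathway was described with 9 lists holding 180 genes, of which 175 were matched and 159 tested. Of the 159, 3 passed an adjusted p of 0.05 in edgeR (1.89%, beside 1.7% of all genes tested), namely INHBA and CHRDL1, which rose, and VEGFA, which fell. DESeq2 passed 13 that were higher and 7 that were lower (12.6%, beside 8.75% of all genes). The median log2 fold change over the 159 genes was 0.07, beside -0.01 over all genes tested.

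INHBA, which encodes the subunit of activin A, a ligand that also signals through SMAD2 and SMAD3, had FPKM values of 0.822, 0.683 and 0.620 in the normal samples, against 1.62, 1.58 and 1.73 in PVR. Both groups were tight and far apart for a gene of this low level. The log2 fold change was 1.15 (standard error 0.18, edgeR adjusted p = 0.0350). CHRDL1, an extracellular antagonist of bone morphogenetic proteins (BMPs), rose from 6.19 ± 0.333 FPKM (SD, n = 3) to 10.3 ± 1.01 FPKM (SD, n = 3), a log2 fold change of 0.67 (standard error 0.11, edgeR adjusted p = 0.0382). Each gene kept its call in 2 of the 6 fits with a sample left out, those without PVR replicate 3 and without normal replicate 3, and the adjusted p reached 0.217 for INHBA and 0.223 for CHRDL1 without PVR replicate 1. Of the 18 tested genes listed as further ligands, 8 were higher and 10 lower. This list includes BMP1, which is a protease despite its name. BMP6 had a log2 fold change of -1.96 (edgeR adjusted p = 0.0770), and the most abundant, MSTN (myostatin), one of 0.21. The 15 tested extracellular antagonists had 7 higher and 8 lower, with CRIM1, the most abundant, at 0.21. DESeq2 passed CHRDL1 and GREM1 (13.3%, beside 8.75% of all genes), the latter at -1.20.

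Among 20 tested genes of latency and activation, none passed in edgeR, 7 had an unadjusted p under 0.05, and 4 passed with DESeq2. ITGB8, the β subunit of an integrin that releases active TGF-β from its latent complex, narrowly failed to pass. Its FPKM was 14.8, 17.9 and 16.4 in normal, against 25.3, 23.8 and 25.8 in PVR, and a log2 fold change of 0.54 (standard error 0.10, edgeR adjusted p = 0.0504), and it passed in 8 of 16 other settings but in none of the 6 with a sample left out, where its adjusted p was between 0.0676 and 0.257. THBS1, or thrombospondin 1, another activator, had a log2 fold change of 0.92 (edgeR adjusted p = 0.0580). LTBP4 and MMP14 lay in the other direction, with -1.03 and -0.54 (adjusted p of 0.0819 and 0.0640), and these 4 genes were the ones that passed with DESeq2. ITGB5 was the most abundant of the list, with a mean of 53.0 FPKM and a log2 fold change of -0.26.

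No other receptor of the family passed in edgeR, where 4 of 12 had an unadjusted p under 0.05 (33.3%, beside 21.2% of all genes tested). With DESeq2, 2 passed (16.7%, beside 8.75%). BMPR1B, a BMP type I receptor, had FPKM values of 4.78, 4.10 and 4.94 in normal, against 8.35, 10.3 and 6.62 in PVR, and a log2 fold change of 0.80 (standard error 0.15, edgeR adjusted p = 0.0511). ENG, or endoglin, a TGF-β co-receptor found mainly on endothelial cells, had FPKM values of 0.488, 0.393 and 0.801 in normal, against 0.225, 0.0522 and 0.157 in PVR, and a log2 fold change of -2.0 (edgeR adjusted p = 0.119). Endothelial markers went both ways. Of the 13 tested, 10 were lower and 3 higher. VWF and CDH5 fell past the threshold (edgeR adjusted p of 0.106 and 0.188 without PVR replicate 1, and 0.0396 and 0.0791 without normal replicate 2). CDH5 had 0, 0 and 1 counts in PVR. The summed level of the list, of which KDR was the most abundant, was 611 to 646 CPM in normal and 716 to 747 CPM in PVR. The part of these cells in the value of ENG was not tested. BMPR2 was the most abundant of these receptors, at a mean of 31.4 FPKM, with a log2 fold change of 0.05.

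Of the remaining components, SMAD4, the common partner of the receptor-activated SMADs, had a log2 fold change of -0.03. None of the 13 tested further SMADs and cofactors passed in edgeR. DESeq2 passed 1, RUNX2 (7.69%, beside 8.75% of all genes). At an unadjusted edgeR p under 0.05 stood 2 (15.4%, beside 21.2% of all genes tested), RUNX2 and RUNX1. These partners of the SMADs at DNA had log2 fold changes of 1.49 and 0.73, with edgeR adjusted p of 0.0780 and 0.171. ZFYVE9, an adaptor that brings SMADs to the receptor and the most abundant of that list, had -0.01. Of 19 tested genes in a list of regulators, 9 were higher and 10 lower, with a median of -0.07, and none passed in edgeR. The list holds inhibitors but also genes that can promote the signal, such as USP4, USP11 and USP15. Its counts and median therefore do not describe inhibitors alone. An unadjusted edgeR p under 0.05 was found for 5 (26.3%, beside 21.2% of all genes tested). DESeq2 passed 1 (5.26%, beside 8.75% of all genes), the ubiquitin ligase WWP1. WWP1 had a log2 fold change of 0.35 (edgeR adjusted p = 0.0973). The ubiquitin ligases SMURF1 and SMURF2 had log2 fold changes of -0.07 and -0.09, and SKIL, a repressor that TGF-β induces, one of 0.21. STRAP was the most abundant of the list of regulators, at a mean of 69.6 FPKM. The 15 genes of signalling outside the SMADs had a median of 0.03, among them RHOA at -0.19, and none passed in edgeR or DESeq2 (3 at an unadjusted edgeR p under 0.05). The 10 tested BMP targets had a median of -0.14 with none passing in edgeR or DESeq2 and none at an unadjusted edgeR p under 0.05, and ID1, ID3 and ID4, which BMP signalling induces in many cells, had 0.08, 0.07 and -0.16. The widest values of that list were those of the homeobox genes MSX1 and MSX2, at 2.89 and -0.63 (edgeR adjusted p of 0.258 and 0.716), and MSX1 was at 0 in normal replicates 1 and 2.

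The list of genes known to be induced by TGF-β had the widest range of changes. Of 37 tested, 25 were higher and 12 lower, with a median log2 fold change of 0.56, and the median stayed between 0.24 and 0.58 with single samples left out. At an unadjusted edgeR p under 0.05 stood 14 of the 37 (37.8%, beside 21.2% of all genes tested), of which 12 were higher. After adjustment, VEGFA passed, as the 1 gene of the list. It encodes the vascular growth factor and fell, from 74.0 ± 6.94 FPKM (SD, n = 3) to 51.2 ± 2.61 FPKM (SD, n = 3), a log2 fold change of -0.61 (standard error 0.10, edgeR adjusted p = 0.0394). With a sample left out it kept this call in 1 of 6 fits, the one without normal replicate 3, and the adjusted p reached 0.225 without PVR replicate 1. DESeq2 passed 8 genes of the list (21.6%, beside 8.75% of all genes), among them JUNB, TIMP1, LOX, LOXL2 and ACTA2 higher and VEGFA and TNC lower.

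**Figure D4:**
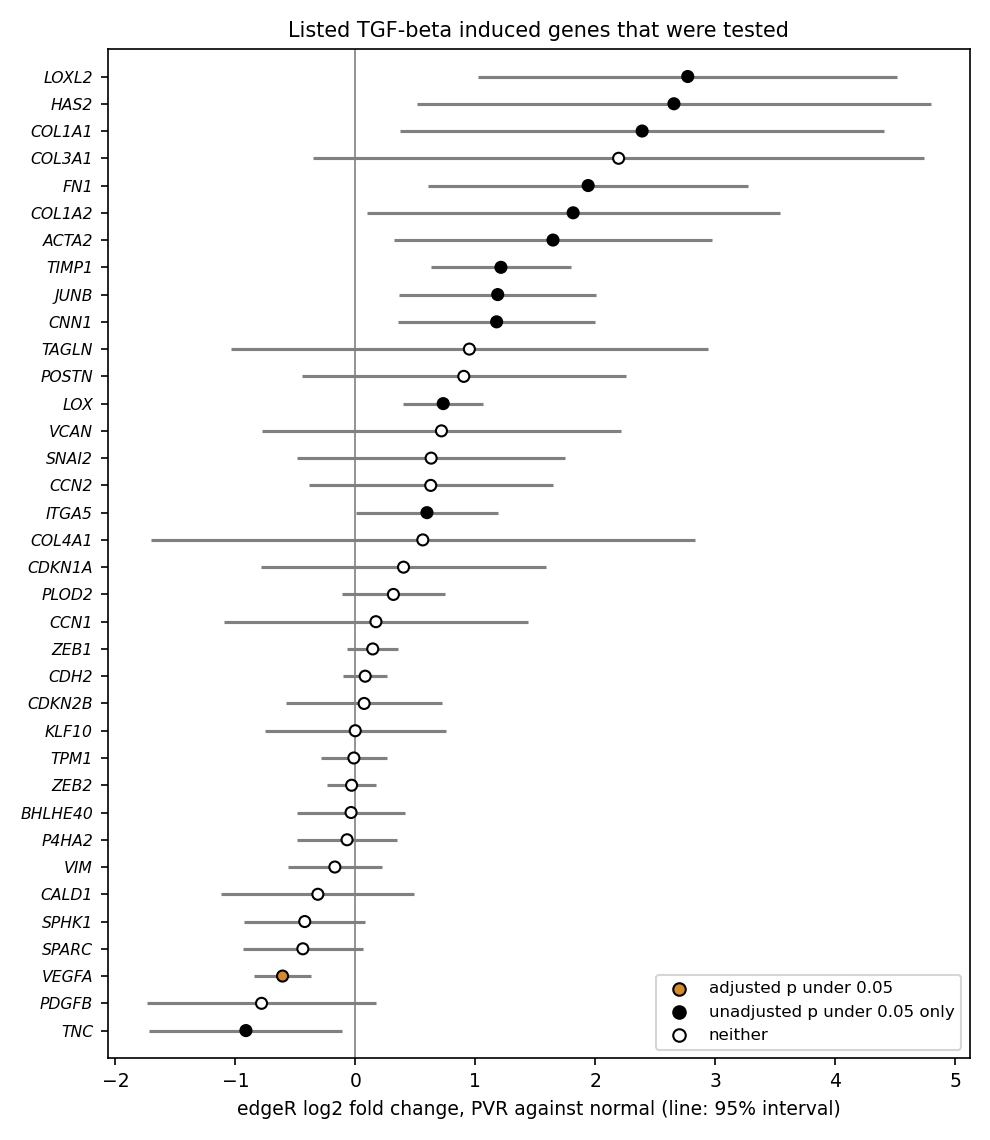
Fitted edgeR log2 fold change of PVR against normal (horizontal axis) with its 95% interval for 36 of the 37 tested genes of the TGF-β induced list. VEGFA, at -0.61, alone has an adjusted p under 0.05, and the genes at the top have wide intervals.

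The genes named from this list in the next sentences, besides VIM, were chosen after their values were seen. LOX, the enzyme that cross-links collagen, had FPKM values of 2.21, 2.43 and 2.02 in normal and 4.07, 3.89 and 3.69 in PVR, with tight groups and a log2 fold change of 0.73 (edgeR adjusted p = 0.0569). FN1, which encodes fibronectin, had FPKM values of 0.691, 4.79 and 3.37 in normal and 12.2, 11.4 and 12.2 in PVR, so that the normal samples were the ones far apart, and its log2 fold change was 1.94 (edgeR adjusted p = 0.125). CCN2, the connective tissue growth factor gene, overlapped between the groups, with 1.24, 2.05 and 3.53 FPKM in normal and 3.45, 2.25 and 5.26 FPKM in PVR. VIM, the most abundant gene of the list at a mean of 510.1 FPKM and an intermediate filament of Müller glia, had a log2 fold change of -0.17 (edgeR adjusted p = 0.586).

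Some matrix and contractile genes of the lists had their PVR samples in the same order as TGFB2, and others did not. COL1A1, the main chain of type I collagen, had FPKM values of 2.49, 1.13 and 2.75 in normal and 11.8, 1.21 and 21.6 in PVR. ACTA2, the smooth muscle actin of myofibroblasts, had 1.42, 1.16 and 2.14 FPKM in normal and 5.85, 1.53 and 8.02 FPKM in PVR. In both genes PVR replicate 2 lay within the normal range and the other PVR samples lay above it. The contractile gene CNN1 (calponin) had 0.920, 0.969 and 1.24 FPKM in PVR replicates 1, 2 and 3, and the basement membrane collagen COL4A1 ran the other way, with 9.30, 16.9 and 2.61 FPKM. LTBP2 and FBN1 (fibrillin 1), matrix proteins of the family that holds or resembles the latent TGF-β binding proteins, had 4.91, 1.61 and 7.91 FPKM and 12.9, 6.87 and 19.7 FPKM in PVR replicates 1, 2 and 3. Genes with PVR replicate 2 lowest, PVR replicate 3 highest and at least 2-fold between them were counted. This rule was set after these values had been seen, and 4.32% of all genes tested met it. It gave 10 of the 37 induced genes, 6 of the 18 genes listed as further ligands, 4 of the 20 latency genes and 3 of the 15 antagonists. It also gave 2 of the 10 BMP targets, 1 of the 12 further receptors and 1 of the 10 members, TGFB2. None of the further SMADs and cofactors, listed regulators or genes outside the SMAD route met the rule. Of the fibroblast markers 6 of 10 met it, and these share COL1A1, COL1A2 and COL3A1 with the induced list. The 6 further ligands were NODAL, GDF7 and GDF11, with at most 46 counts in any sample, and BMP2, BMP4 and BMP6. These last had fitted log2 fold changes below 0, at -0.72, -0.69 and -1.96. The summed fibroblast markers were 352, 246 and 470 CPM in PVR replicates 1, 2 and 3, and their part in the pattern was not tested. TGFBI, SMAD3 and TGFBR2 did not have this order, with PVR replicate 1 lowest for TGFBI and SMAD3 and highest for TGFBR2.

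**Figure D5:**
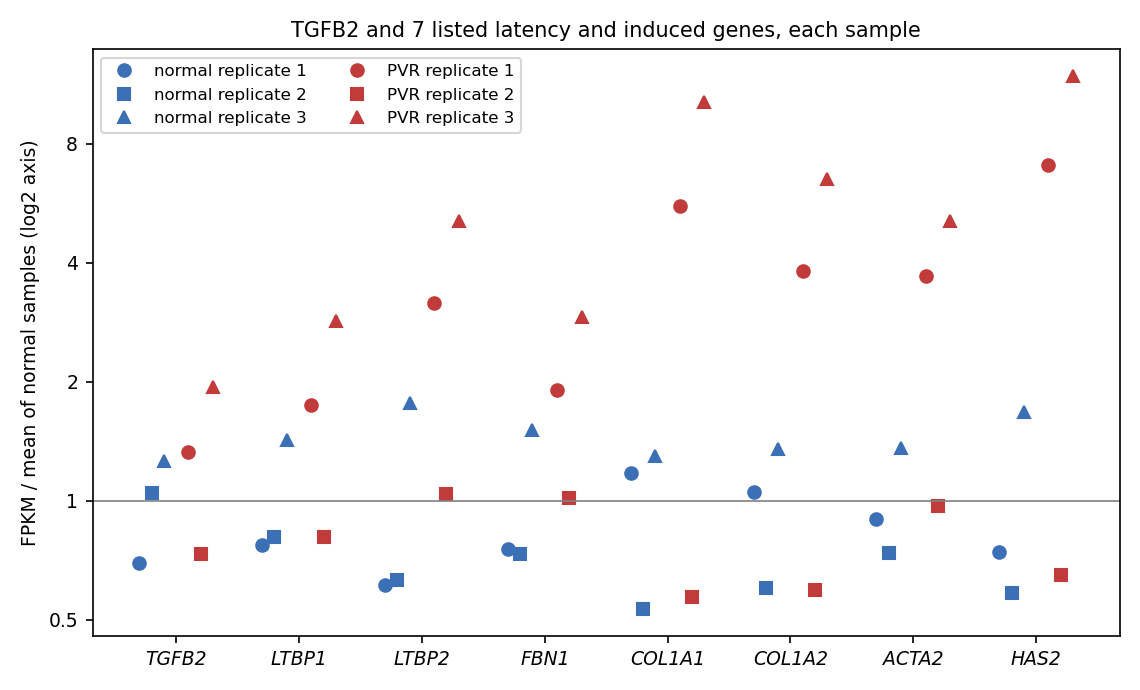
FPKM divided by the mean of the 3 normal samples (vertical axis, log2 scale) for TGFB2 and 7 listed latency and induced genes, with blue normal and red PVR samples (circle, square and triangle for replicates 1, 2 and 3). In all 8 genes PVR replicate 3 is the highest and PVR replicate 2 the lowest of the PVR samples; the genes were chosen after their values were seen.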

How the data were processed

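RNA of 3 normal and 3 PVR rabbit retina samples was grouped by the titles in the labels. The authors used fastp for trimming, HISAT2 for alignment to OryCun2.0 and HTSeq for counting by gene, and deposited raw counts. The strand setting and annotation release are not given in the sources used here. The authors also deposited FPKM values, which equal the count divided by gene length and total count (largest relative difference in length between samples 4.24e-09). Totals were 31904593 to 43035080 counts. Precision is limited by the spread between samples and, for low genes, also by counting. Positions and sequences are not given, because no genome or sequence table of this build was used.

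Counts were tested in R 4.3.3 with edgeR 4.0.16 (default low-count filter, TMM, quasi-likelihood, condition as the only term, Benjamini-Hochberg over 18697 genes), calling genes under an adjusted p of 0.05, and for a second count also beyond 1 in log2 fold change. Standard errors are the log2 fold change over the square root of F. The method of the study, DESeq2 (here 1.42.0), was an alternative, beside RLE and upper-quartile factors, other count filters (none, or 10 in every sample), limma 3.58.1 (voom, log2(FPKM + 1), log2(FPKM + 0.1)), a replicate block, lens genes left out, and each sample left out. Log2 CPM used a prior count of 2. Ratios of FPKM were compared with two-sided exact permutation tests in SciPy 1.17.1. The fits were tested on simulated counts with known changes, 100 genes at a log2 size of 1 and 100 at 2. edgeR recovered 52 and 83 of these with 6 false calls, and DESeq2 75 and 93 with 43 false calls. The counts were drawn with the dispersions estimated by edgeR around means over all samples, and the changed genes were not low ones. The simulation therefore does not compare edgeR and DESeq2 on equal terms. Samples sharing a replicate number are not known to be pairs, and their deviations correlated only weakly, so the numbers were not taken as pairs. So few samples cannot show that pairing is absent.

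The members and gene lists were chosen with earlier results of these data known. Genes were matched by symbol, and 5 by the RefSeq gene ID of assembly mOryCun1.1, which was used for names only. Named are the 10 members, pathway genes with an adjusted p under 0.05, the most abundant gene of each list, defining markers, and the nearest gene in pattern to each member, apart from 3 genes that are not reported here; other genes were named after their values were seen. Figures used matplotlib 3.10.9. The human dataset, qRT-PCR and western blot of the study were not analysed here.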

Additional observations from a re-analysis of the deposited data

How the results depend on the processing

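Over 16 alternatives, 158 of 160 values of single members kept the direction and the side of the threshold. The exceptions were TGFBI with DESeq2 (log2 fold change 1.28, adjusted p = 0.0248) and TGFB2 without PVR replicate 3 (log2 fold change -0.032, from a range of -0.032 to 0.65 with a sample left out). The number of members past the threshold was 1 with DESeq2, also with the limit on fold change, and 0 to 0 with single samples left out. Pathway genes past the threshold, 3 of 159 with all samples, numbered 20 with DESeq2, 5 with upper-quartile factors or without lens genes, 6 without a filter, and 0 to 5 with a sample left out (0 without PVR replicate 1 or normal replicate 2, 1 without normal replicate 1, 2 without PVR replicate 2, and 5 without PVR replicate 3 or normal replicate 3). Over all genes, 318 passed, 1755 with DESeq2, and 22 to 650 with a sample left out: 22, 113 and 650 without PVR replicates 1, 2 and 3, and 98, 76 and 557 without normal replicates 1, 2 and 3. Of the 318, 63.8% were higher in PVR, and 75.0% and 74.0% of those called by limma on the log2 of FPKM + 1 and FPKM + 0.1. The causes were not tested. With the replicate block, 0 pathway genes and 92 of all genes passed. The shared numbers are not known to pair the samples: deviations of same-numbered samples correlated at -0.0129, 0.0734 and 0.0417, and not every sample correlated best with its own number. The difference in the log2 ratio of TGFB2 to TGFB1 was -0.13 with all samples, 0.017 on the log2 of FPKM + 1, and -0.66 to 0.48 with a sample left out (0.08 without normal replicate 3 and 0.48 without PVR replicate 2). For TGFB3 to TGFB1 it was -0.02, 0.027 on the log2 of FPKM + 1, and -0.23 to 0.29 with a sample left out (0.29 without normal replicate 3 and 0.14 without PVR replicate 2). Low counts and the spread between samples limit TGFB1 and TGFBI.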

Other observations

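By the Pearson correlation of log2 CPM over the 6 samples, among 9593 genes with a symbol and a mean log2 CPM of at least 3, the gene nearest in pattern to TGFB2 was EPHX1 (r = 0.990), to TGFBI VPS29 (r = 0.999) and to TGFB1 PAAF1 (r = 0.991). For TGFB3 it was TMEM127, for TGFBR1 BICDL1, for TGFBR2 SYT16, for SMAD2 SLC25A28, for SMAD3 TRAF1 and for SMAD7 GGA1, with r between 0.978 and 0.989. These are descriptions of 6 samples that share the division into normal and PVR. Each r is the highest of 9593, so its size was selected for. It also takes no account of the size of a change, since VPS29 had a log2 fold change of 0.13 beside 1.28 for TGFBI. None of the nearest genes named had an adjusted p under 0.05 in edgeR, the lowest being 0.0870 for SYT16.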
